A study of Mus musculus with 12 samples.

Results

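The 10 genes described here are Zeb2 and its paralogue Zeb1, the other EMT (epithelial-to-mesenchymal transition) factors Snai1, Snai2, Twist1 and Twist2, the hypoxia factors Hif1a and Epas1, and Tmsb4x and Ptma, which have been described as paracrine targets of ZEB2 in cardiomyocytes. They were chosen by name, with earlier results of these data known. All 10 were found by symbol among the 38293 gene identifiers of both count tables. The tables hold RNA-seq counts of 12 mouse hearts in 4 groups of 3. One table holds C57B/6J Wildtype mice after Sham surgery (WT sham, with no time point in the labels) and 14 days after Ischemia-Reperfusion injury (WT IR), in which a coronary artery is tied off for a time and then reopened. The other holds C57B/6J Wildtype littermates (Zeb2 WT IR) and C57B/6J Zeb2 Tg mice (Zeb2 cTg IR), both 14 days after the same injury. In the Zeb2 cTg mice both Rosa26 alleles hold a Zeb2 transgene behind a stop cassette, which a Cre recombinase under the Myh6 promoter removes in cardiomyocytes and so directs its expression to cardiomyocytes. Whether the littermates carry Cre or the Rosa26 transgene is not given in the sources used here. The mice were 8 to 9 weeks old, and the methods name males in one place and both sexes in another. The sources also differ on the tissue, which is the left ventricle in the sample labels, the remote zone in the methods, and the infarct with its border in the design text.

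EMT factors are DNA-binding repressors and activators through which cells lose epithelial contacts and gain mesenchymal traits. ZEB1 and ZEB2 are zinc finger proteins that bind E-box sequences and repress genes through CtBP, whereas TWIST1 and TWIST2 are basic helix-loop-helix proteins that act with E-proteins. HIF1A and EPAS1 (HIF-2α) are the oxygen-sensitive subunits of the hypoxia-inducible factors. Prolyl hydroxylases mark both proteins for destruction when oxygen is present, so their activity is set largely at the protein level, which RNA counts do not measure. Tmsb4x encodes thymosin β4, a small protein that binds actin monomers, and Ptma encodes prothymosin α, a small acidic nuclear protein.

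Libraries held between 20215781 and 36816818 counts, of which mitochondrial genes took between 60.6% and 73.5%. Values are counts per 1000000 counts (CPM), normalized within each table, and 1 CPM stands for between 17.2 and 37.8 counts. In all 4 groups the hearts expressed the cardiomyocyte gene Myh6 at between 4513 and 8809 CPM per library. In WT IR, 11 of 12 fibroblast markers and 10 of 12 macrophage markers were higher than in WT sham, and 5 of 20 cardiomyocyte markers were lower. The summed level of the fibroblast markers was between 543 and 952 CPM in WT sham and between 1922 and 4773 CPM in WT IR. That of the macrophage markers was between 173 and 193 CPM in WT sham and between 249 and 478 CPM in WT IR. With a library left out the markers that passed numbered from 7 to 12 for fibroblasts and from 1 to 12 for macrophages, both lowest without replicate 2 of WT sham, and from 0 to 11 for cardiomyocytes, at 0 without that library or without replicate 2 of WT IR. None of the markers in these 3 lists was at 0 throughout a group. These values move with the rise of the members after IR, and their part in it was not tested. In tissue samples, fewer cells of a type and less RNA per cell cannot be told apart.

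Hypoxia-inducible factors bind DNA at a short core, ACGTG or GCGTG, and the 10 RefSeq start sites (GRCm38.p6) of 7 of the genes were searched for it on both strands, from 250 bases before the start up to the start. At least 1 core stood in 7 of the 10 windows, against 38.6% of the 32851 windows of all genes. Of these 7 windows, 2 are windows of Zeb2 that overlap and share 1 core. By gene a core stood in 6 of the 7, for which the share over all genes was not computed. Taken alone, ACGTG stood in 16.6% of all windows and GCGTG in 28.2%. The stretches shown are those of the members that rose after IR and hold a core, each in the direction of its gene with the core in capitals and up to 30 bases on either side, including a core read on the opposite strand (CACGT or CACGC). The Zeb2 stretch lies before 2 of its 4 listed starts, at chr2:45113285-45113349 (minus strand), within the Zeb2 gene and within an exon of its antisense gene Zeb2os.
Zeb2: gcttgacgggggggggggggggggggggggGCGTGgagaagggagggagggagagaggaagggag
Hif1a, chr12:73907702-73907767 (plus strand), where both strands carry ACGTG: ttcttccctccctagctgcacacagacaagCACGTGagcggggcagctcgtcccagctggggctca
Hif1a, chr12:73907767-73907831: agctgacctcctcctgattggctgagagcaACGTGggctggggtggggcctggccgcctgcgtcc
Twist1, chr12:33957543-33957607 (plus strand): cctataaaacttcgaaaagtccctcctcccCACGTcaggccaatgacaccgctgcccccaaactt
Tmsb4x, chrX:167209422-167209468 (minus strand): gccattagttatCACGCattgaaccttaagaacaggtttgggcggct
Ptma, chr1:86526445-86526530 (plus strand): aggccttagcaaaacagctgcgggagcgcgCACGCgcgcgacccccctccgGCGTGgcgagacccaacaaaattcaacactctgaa
The nearest core was 40 bases before a start in Zeb2, 70 in Hif1a, 98 in Twist1, 61 in Ptma and 238 in Tmsb4x. Snai1, which did not rise, held 3 cores, and Twist2 held none. The short site bound by ZEB proteins, CACCT or AGGTG on the other strand, stood before a start of Hif1a, Snai1, Twist1 and Zeb2 itself. It was in 6 of the 10 windows, against 46.0% of all windows. These matches of letters are descriptions and say nothing of binding.

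Zeb2 (ENSMUSG00000026872, chromosome 2, 44983632 to 45117395, minus strand, GRCm38) was higher after injury in wild-type hearts and was not higher in the hearts labelled as carrying the transgene. In WT sham it was at 49.0, 49.9 and 55.8 CPM in replicates 1 to 3, and in WT IR at 59.1, 80.8 and 74.6 CPM. All 3 WT IR hearts lay above all 3 WT sham hearts, although replicate 1 of WT IR was close to the highest of them. The difference was 1.39-fold, a log2 fold change of 0.47 (standard error 0.12, 95% interval 0.21 to 0.73), with a Benjamini-Hochberg adjusted p = 0.0219 by the edgeR quasi-likelihood test. With an adjustment for the GC content of transcripts the log2 fold change was 0.29 and no longer passed (edgeR, adjusted p = 0.0699). It also failed to pass without replicate 1 of WT sham (0.44, adjusted p = 0.0851), without replicate 2 of WT sham (0.44, adjusted p = 0.112) or without replicate 2 of WT IR (0.38, adjusted p = 0.0950).

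As the gene that the transgene should raise, Zeb2 is also a check of the labels. It was at 54.7, 57.7 and 67.0 CPM in Zeb2 WT IR and at 55.5, 56.8 and 58.7 CPM in the libraries labelled as Zeb2 cTg IR. The groups overlapped, and the log2 fold change was -0.07 with a 95% interval from -0.34 to 0.20 (edgeR adjusted p = 0.750). With the GC-content adjustment it was 0.15, with no pass either (edgeR adjusted p = 0.471). The counts therefore do not bear out the label, and every direction given below for the libraries labelled as Zeb2 cTg IR rests on the labels. The study itself reports the opposite for Zeb2 cTg hearts 14 days after surgery. There, Zeb2 RNA was higher than in littermates by qPCR, and ZEB2 protein by staining. What sets the counts apart from those measurements was not tested. Counts per gene do not separate transcripts of the transgene from those of the endogenous gene. Zeb2os (chromosome 2, 45110707 to 45114087), an antisense gene inside Zeb2 on the plus strand, had 15, 17 and 15 counts in WT sham, 18, 39 and 38 in WT IR, 21, 19 and 28 in Zeb2 WT IR, and 16, 9 and 13 in the libraries labelled as Zeb2 cTg IR. It passed in neither comparison (log2 fold changes of 0.66 and -0.87, adjusted p = 0.226 and 0.171 from edgeR's quasi-likelihood test). The libraries were stranded, but the strand setting used for counting is not given in the sources used here, so reads of Zeb2 and Zeb2os may not be fully separated.

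Gt(ROSA)26Sor, the non-coding transcript of the Rosa26 locus into which the transgene was placed (chromosome 6, 113067428 to 113077333, minus strand), was far lower in the second table than in the first. It had 43, 97 and 54 counts in WT sham and 90, 109 and 104 in WT IR, but 11, 5 and 4 in Zeb2 WT IR and 2, 3 and 3 in the libraries labelled as Zeb2 cTg IR. The low counts were thus shared by all 6 libraries of the second table, the littermates labelled wild type included, and within that table the 2 genotypes did not overlap. In CPM the range was 1.63 to 3.88 in the first table and 0.0838 to 0.403 in the second. The genes on either side did not share this gap, with Thumpd3 at 6.92 to 9.21 CPM in the first table and 7.63 to 11.1 CPM in the second, and Setd5 at 43.8 to 47.6 CPM and 35.4 to 47.4 CPM. Because the tables were normalized apart, these levels are set side by side without a test. Thumpd3 (113046225 to 113068273, plus strand) overlaps Gt(ROSA)26Sor on the other strand. As the strand setting used for counting is not given, reads of the 2 genes may not be fully separated. Within the second table Gt(ROSA)26Sor was too low to pass the filter on counts, and without the filter its log2 fold change was -1.34 and did not pass (unadjusted p = 0.0760, Benjamini-Hochberg adjusted p = 0.350 by the edgeR quasi-likelihood test). Myh6, whose promoter drives Cre, was at 6622, 4699 and 4513 CPM in Zeb2 WT IR and at 8803, 4917 and 8509 CPM in the libraries labelled as Zeb2 cTg IR, and these overlapped.

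**Figure D1:**
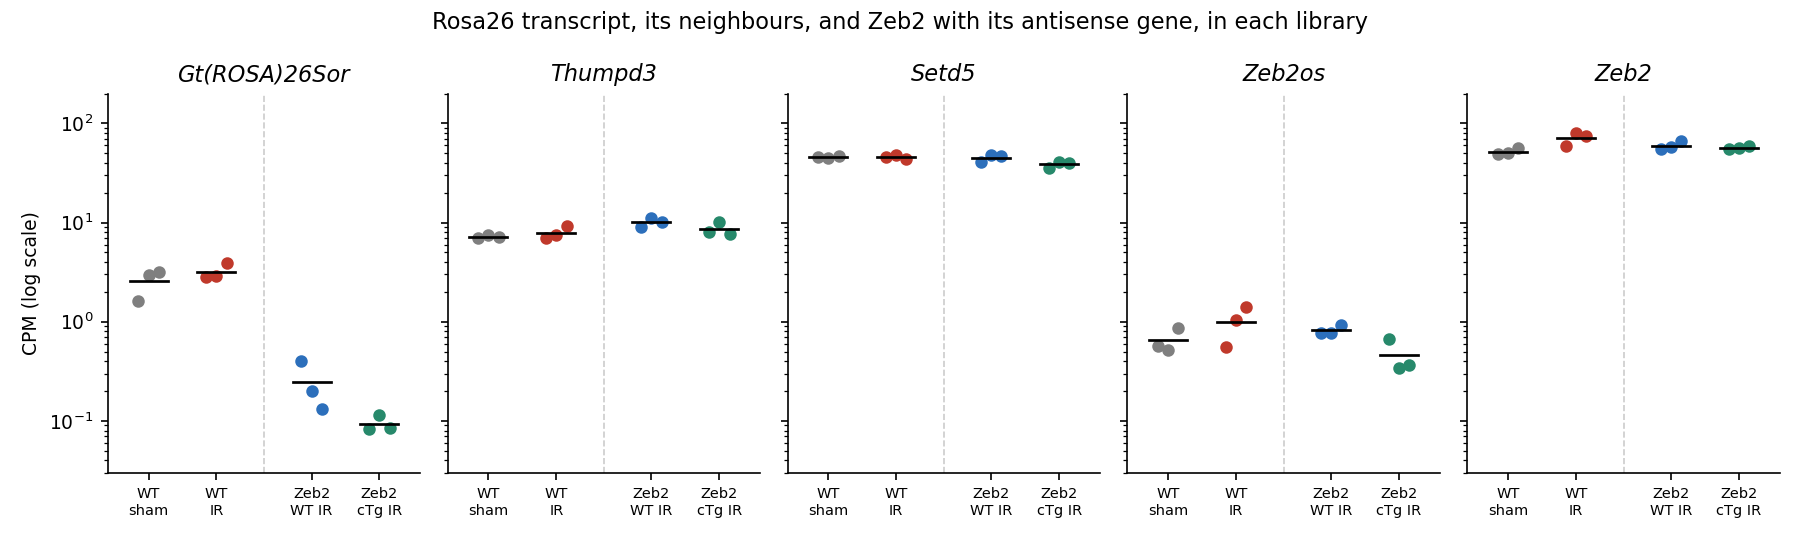
CPM on a log axis of Gt(ROSA)26Sor, its neighbours Thumpd3 and Setd5, Zeb2os and Zeb2 in each library (points) with group means (bars); the dashed line parts the tables, which were normalized separately. Gt(ROSA)26Sor is at 1.63 to 3.88 CPM in the WT table and at 0.0838 to 0.403 CPM in the Zeb2 table, while Zeb2 lies between 49.0 and 80.8 CPM in all 12 libraries.

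Of the 10 genes, 9 had enough counts to be tested in WT IR against WT sham, and 6 of these were higher and 0 lower. With at least 10 counts required in every library, which leaves out Twist1 and Snai1, 5 of 7 were higher, as were 1435 of the 12569 genes then tested. Over all 13756 genes tested without that requirement, 11.0% were higher and 9.74% lower. The median log2 fold change of the 9 genes was 0.51, against 0.01 over all genes tested. In 7 of the 10 genes all WT IR hearts lay above all WT sham hearts, namely the 6 that were higher and Twist2, which was not tested (20.5% of all genes tested). Epas1 alone lay entirely below, as did 19.3% of all genes tested. With each library left out in turn the count of members that passed was 3 without replicate 1 of WT sham, 0 without replicate 2, 2 without replicate 3, 8 without replicate 1 of WT IR, 1 without replicate 2 and 3 without replicate 3. The count over all genes moved as well, from 421 without replicate 2 of WT sham to 4979 without replicate 1 of WT IR. In the fit without replicate 2 of WT sham, 7 members still had an unadjusted p under 0.05, as had 3634 of the 13790 genes tested. After the GC-content adjustment 3 members passed (Hif1a, Tmsb4x and Twist1), all higher. Over the 13756 genes tested, 1184 were then higher and 1588 lower.

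**Figure D2:**
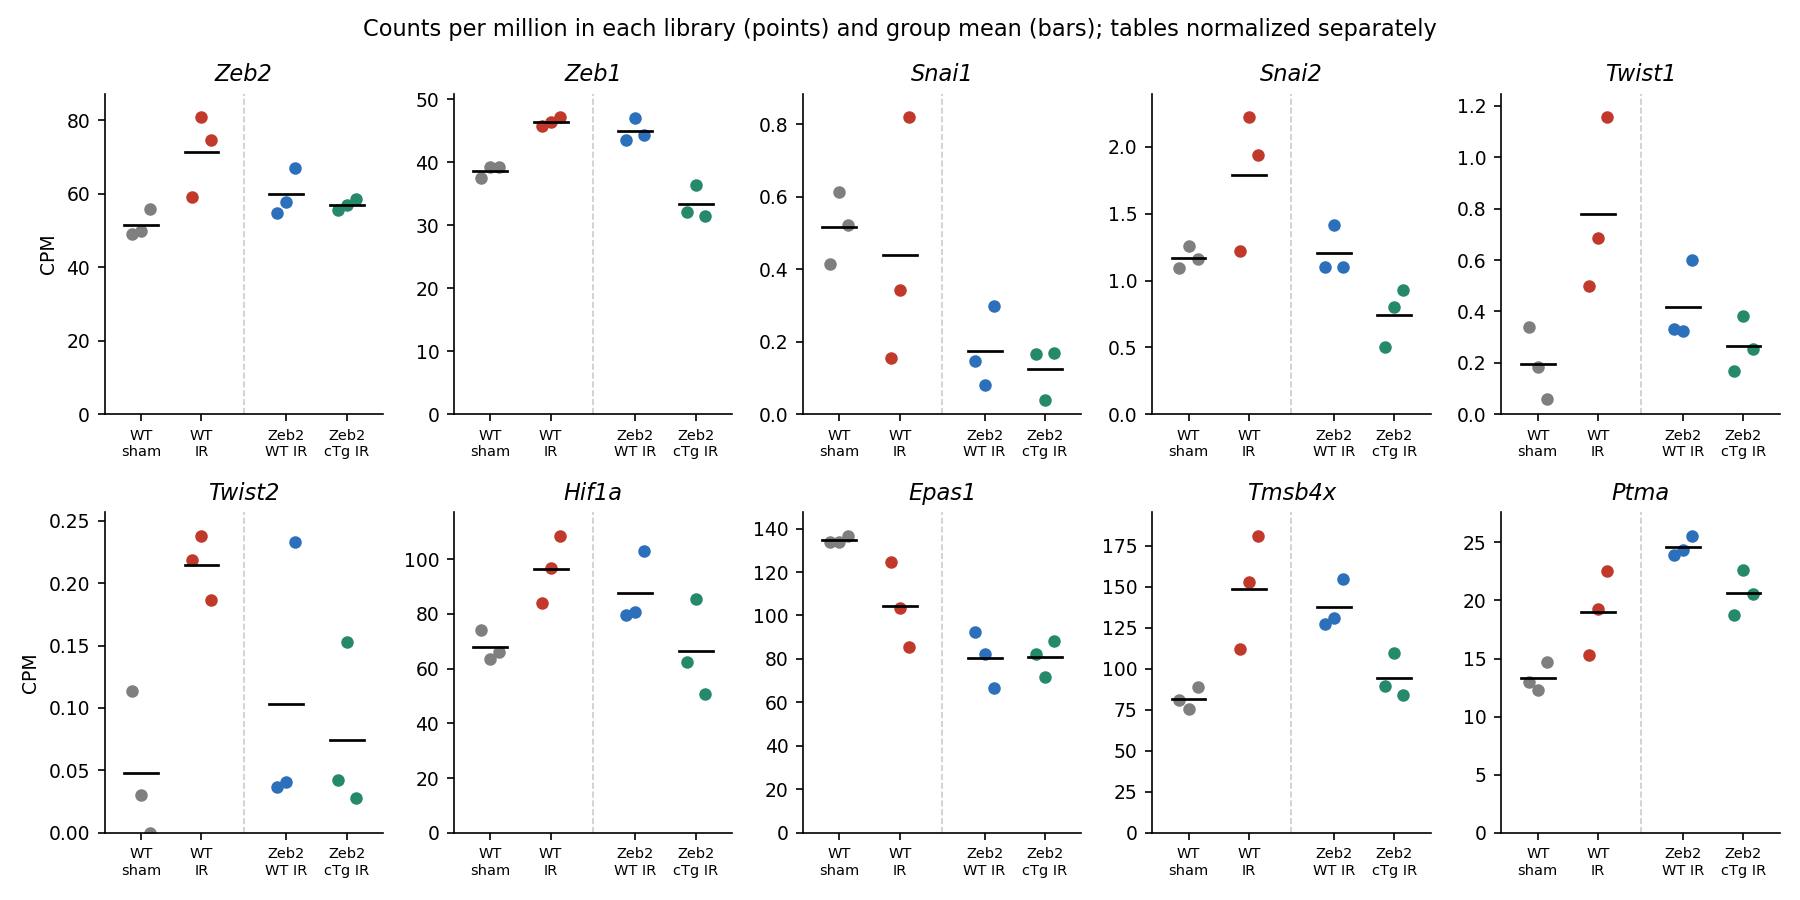
CPM of the 10 genes in each library (points) with group means (bars), on linear axes from 0; the dashed line parts the tables. In Zeb2, Zeb1, Twist1, Twist2, Hif1a, Tmsb4x and Ptma all WT IR libraries lie above all WT sham libraries, and in Epas1 all lie below, while Snai1 overlaps.

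Zeb1 (ENSMUSG00000024238, chromosome 18, 5591860 to 5775467, plus strand) rose less than Zeb2 in wild-type hearts but with a narrower spread. It was at 37.5, 39.3 and 39.3 CPM in WT sham and at 45.7, 46.4 and 47.1 CPM in WT IR. The groups were well apart, and the difference was 1.20-fold (log2 fold change 0.26, standard error 0.07, Benjamini-Hochberg adjusted p = 0.0243 by the edgeR quasi-likelihood test). Zeb1 no longer passed with the GC-content adjustment (0.14, adjusted p = 0.173), in a single fit of the 12 libraries (adjusted p = 0.0685) or with DESeq2 (adjusted p = 0.0501). Leaving out any library other than replicate 1 of WT IR also ended the call, with log2 fold changes from 0.24 to 0.27 over the 6 fits.

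The SNAIL and TWIST genes were expressed at a far lower level, near the limit of detection for some. Snai1 (chromosome 2, 167538195 to 167542814) had 11, 20 and 9 counts in WT sham and 5, 13 and 22 in WT IR, and the groups overlapped (log2 fold change -0.31, standard error 0.50, edgeR adjusted p = 0.693). Snai2 (chromosome 16, 14705852 to 14709385) was at 1.10, 1.26 and 1.16 CPM in WT sham and at 1.22, 2.22 and 1.94 CPM in WT IR. Replicate 1 of WT IR lay among the sham hearts, and the difference did not pass (log2 fold change 0.61, standard error 0.25, edgeR adjusted p = 0.109), although it did without that library (0.82, adjusted p = 0.00805). Twist1 (chromosome 12, 33957671 to 33959829), a factor of mesenchymal lineages, had 9, 6 and 1 counts in WT sham and 16, 26 and 31 in WT IR. Every WT IR heart exceeded every sham heart, and the fitted difference was the widest of the 9 members tested (log2 fold change 1.85, 95% interval 0.75 to 2.96, Benjamini-Hochberg adjusted p = 0.0283 by the edgeR quasi-likelihood test). Twist1 reached the filter on counts through its WT IR libraries. It did not pass without replicate 2 of WT sham (1.74, adjusted p = 0.135), without replicate 3 of WT sham (1.56, adjusted p = 0.0820), without replicate 2 of WT IR (1.94, adjusted p = 0.0777) or without replicate 3 of WT IR (1.50, adjusted p = 0.0663). Twist2 (chromosome 1, 91801461 to 91848028), its paralogue, had 3, 1 and 0 counts in WT sham and 7, 9 and 5 in WT IR, and was not tested. In a fit without the filter on counts Twist2 was at 1.96, beside 1.86 for Twist1, with an adjusted p = 0.0887 by edgeR.

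Of the hypoxia factors, Hif1a was higher in wild-type hearts after IR and Epas1 did not pass. Hif1a (ENSMUSG00000021109, chromosome 12, 73901375 to 73947530), the gene of the HIF subunit found in most cells, was at 74.1, 63.4 and 66.0 CPM in WT sham and at 83.9, 96.8 and 109 CPM in WT IR. The groups did not overlap, and Hif1a was 1.42-fold higher (log2 fold change 0.51, 95% interval 0.27 to 0.75, Benjamini-Hochberg adjusted p = 0.0132 by the edgeR quasi-likelihood test). Epas1 (ENSMUSG00000024140, chromosome 17, 86753700 to 86833410), the subunit prominent in endothelial cells, was at 134, 134 and 137 CPM in WT sham and at 125, 104 and 85.6 CPM in WT IR. All WT IR hearts lay below all sham hearts, but the difference did not pass (log2 fold change -0.36, 95% interval -0.64 to -0.09, edgeR adjusted p = 0.0633). It passed with DESeq2 (-0.37, adjusted p = 0.0351), without the filter on counts (adjusted p = 0.0152) and without replicate 1 of WT IR (-0.51, adjusted p = 0.000946). The call of Hif1a was lost without replicate 2 of WT sham (0.45, adjusted p = 0.0859), without replicate 3 of WT sham (0.48, adjusted p = 0.0563), without replicate 2 of WT IR (0.51, adjusted p = 0.0560) and in a single fit of the 12 libraries (adjusted p = 0.0744). With the GC-content adjustment Hif1a was at 0.33 and only just passed (edgeR adjusted p = 0.0497). With that adjustment and the replicate block it was at 0.33 and did not pass (edgeR adjusted p = 0.0812). None of 9 endothelial markers passed in WT IR, and their median log2 fold change was -0.01.

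Per kilobase of exon, Epas1 stood at 24.1 ± 0.305 CPM (SD, n = 3) in WT sham, above Hif1a at 11.5 ± 0.948 CPM per kilobase. In WT IR they were at 18.7 ± 3.48 and 16.4 ± 2.09 CPM per kilobase and their ranges overlapped. With the longest transcript in place of all exons, Epas1 stayed above Hif1a in WT sham (24.4 and 14.4 CPM per kilobase). In WT IR that length put Hif1a at 20.4 and Epas1 at 19.0, with overlap, so the order there rested on the length used. On all exons the log2 ratio of Epas1 to Hif1a was 0.93, 1.16 and 1.13 in the sham hearts. In the WT IR hearts it was 0.65, 0.18 and -0.27, so that replicate 3 of WT IR had more Hif1a than Epas1 on this scale. The mean ratio fell by 0.88 on the log2 scale without overlap (two-sided exact permutation p = 0.1, below which 3 hearts against 3 cannot go, and adjusted p = 0.4 over the 8 ratio tests).

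Both genes described as targets of ZEB2 were higher after IR. Tmsb4x (ENSMUSG00000049775, chromosome X, 167207093 to 167209315) was at 81.1, 75.7 and 88.6 CPM in WT sham and at 112, 153 and 181 CPM in WT IR. Its lowest WT IR heart was above its highest sham heart, and the difference was 1.82-fold (log2 fold change 0.86, 95% interval 0.51 to 1.21, Benjamini-Hochberg adjusted p = 0.00797 by the edgeR quasi-likelihood test). It passed in all 12 alternatives and in 5 of the 6 fits with a library left out, the exception being the fit without replicate 2 of WT sham (0.80, adjusted p = 0.0587). Ptma (ENSMUSG00000026238, chromosome 1, 86526726 to 86530712) was at 13.0, 12.3 and 14.7 CPM in WT sham and at 15.3, 19.3 and 22.5 CPM in WT IR. Replicate 1 of WT IR was only slightly above the highest sham heart, and the difference was 1.43-fold (log2 fold change 0.52, standard error 0.14, edgeR adjusted p = 0.0281). Ptma passed in only 1 of the 6 fits with a library left out, that without replicate 1 of WT IR (0.65, adjusted p = 0.000401), and the others gave adjusted p-values from 0.0557 to 0.134 with log2 fold changes from 0.38 to 0.57. With the GC-content adjustment it was 0.39 (adjusted p = 0.0526). Reads of Ptma may be shared with processed copies of the gene elsewhere in the genome, which counting per gene can split.

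The size of these differences depended on the scaling. Size factors taken from the 20 cardiomyocyte markers moved the median of all tested genes from a log2 fold change of 0.01 to 0.27, and the genes that passed from 1519 higher and 1340 lower to 2658 and 249. With them Zeb2 was at 0.75, Zeb1 at 0.53, Hif1a at 0.79, Tmsb4x at 1.15 and Ptma at 0.80, and the same 6 members passed. Of these 20 markers, 18 were themselves below 0 in WT IR as fitted, and 5 of the 20 passed as lower. Scaling on them therefore raises the other genes, and that the same members passed adds no support. Epas1 was at -0.12 under this scaling (edgeR adjusted p = 0.383).

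**Figure D3:**
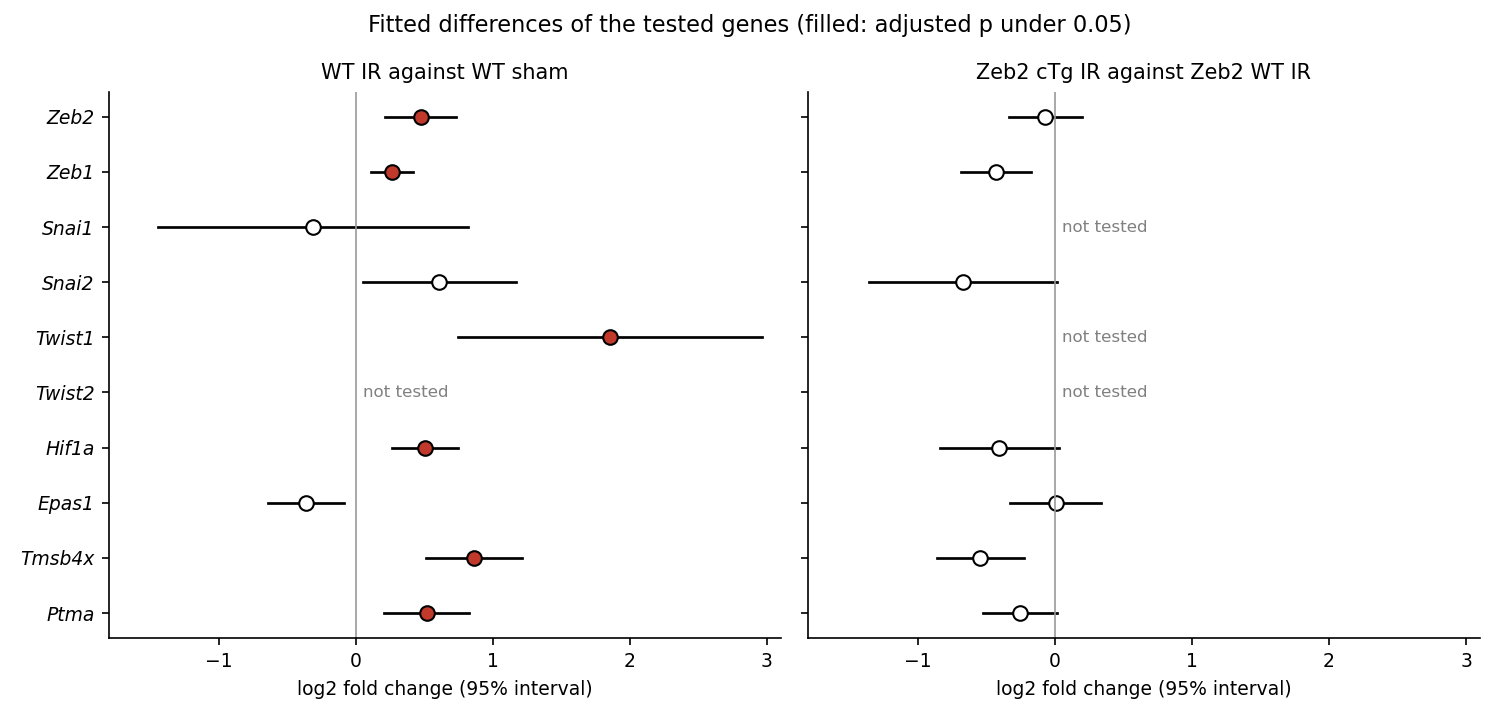
Log2 fold changes of the tested members with 95% intervals in both comparisons; filled points have an adjusted p under 0.05 by the edgeR quasi-likelihood test. The 6 filled points, Zeb2, Zeb1, Twist1, Hif1a, Tmsb4x and Ptma, all lie to the right of 0 in WT IR against WT sham, and none is filled in the libraries labelled as Zeb2 cTg IR against Zeb2 WT IR.

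In the libraries labelled as Zeb2 cTg IR, 7 members were tested against Zeb2 WT IR and 0 passed in either direction, where 2.14% of the 13018 genes tested were higher and 1.51% lower. At an unadjusted p under 0.05 there were 3134 of the 13018 genes tested, among them 2 members, Zeb1 and Tmsb4x. DESeq2 called both of these lower, limma-voom neither. The median log2 fold change of the 7 members was -0.40, against 0.01 over all genes tested. Log2 fold changes in this comparison went with the GC content of transcripts across genes (Spearman rho 0.55). With the GC-content adjustment Snai2 was at -0.47, Tmsb4x at -0.46, Zeb1 at -0.31, Hif1a at -0.22, Epas1 at -0.13, Ptma at -0.13 and Zeb2 at 0.15. The part of GC content in the members' values was not tested. Scaling on the cardiomyocyte markers moved the median over all genes tested to -0.19 and the genes that passed from 278 higher and 196 lower to 196 and 951. In 4 of the 7, Zeb1, Snai2, Tmsb4x and Ptma, every library labelled as Zeb2 cTg IR lay below every Zeb2 WT IR library, as in 12.8% of all genes tested. Of the fibroblast markers, 3 of 12 were lower (Col3a1, Lum and Col1a2), and their summed level was between 566 and 692 CPM in the libraries labelled as Zeb2 cTg IR and between 960 and 2096 CPM in Zeb2 WT IR. Without replicate 1 or replicate 3 of the libraries labelled as Zeb2 cTg IR, 0 fibroblast markers passed, without replicate 2 there were 6, and without replicate 3 of Zeb2 WT IR there was 1. Summed macrophage markers overlapped, at 197 to 226 CPM and 192 to 265 CPM. Of the cardiomyocyte markers 2 of 20 were higher (Mybpc3 and Tnnt2), 18 of 20 lay above 0 and the median log2 fold change was 0.28. Their summed level was between 68267 and 72021 CPM against 59666 and 62549 CPM in Zeb2 WT IR, without overlap, and with a library left out between 0 and 8 of them passed (8 without replicate 2 of the libraries labelled as Zeb2 cTg IR). The part of these differences in the members' values was not tested.

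Tmsb4x was at 127, 131 and 155 CPM in Zeb2 WT IR and at 89.6, 109 and 83.9 CPM in the libraries labelled as Zeb2 cTg IR. These did not overlap, and the log2 fold change was -0.54 (95% interval -0.86 to -0.23, edgeR adjusted p = 0.0640). Zeb1 was at 43.6, 47.0 and 44.3 CPM and at 32.2, 36.4 and 31.5 CPM, again apart (log2 fold change -0.43, 95% interval -0.69 to -0.17, edgeR adjusted p = 0.0684). Neither passed as fitted, and of 12 alternatives Tmsb4x passed in 6 and Zeb1 in 5. Both passed with scaling on cardiomyocyte markers, the GC-content adjustment, a single fit of the 12 libraries and DESeq2. Neither passed with RLE or upper-quartile size factors. Each passed in 1 of the 6 fits with a library left out, that without replicate 2 of the libraries labelled as Zeb2 cTg IR. There Tmsb4x was at -0.67 (edgeR adjusted p = 0.0115) and Zeb1 at -0.50 (adjusted p = 0.0192). Ptma was at 23.9, 24.3 and 25.6 CPM in Zeb2 WT IR and at 18.8, 22.6 and 20.5 CPM in the libraries labelled as Zeb2 cTg IR (log2 fold change -0.25, edgeR adjusted p = 0.232). Snai2 was at 1.10, 1.42 and 1.10 CPM and at 0.503, 0.801 and 0.926 CPM, also apart (log2 fold change -0.67, standard error 0.30, edgeR adjusted p = 0.216).

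Hif1a overlapped, at 79.7, 80.8 and 103 CPM in Zeb2 WT IR and 62.5, 85.6 and 50.9 CPM in the libraries labelled as Zeb2 cTg IR. Its log2 fold change was -0.40 (95% interval -0.84 to 0.03, edgeR adjusted p = 0.236), and without replicate 2 of the libraries labelled as Zeb2 cTg IR, the highest of these, it was -0.64 and passed (adjusted p = 0.0246). Epas1 was at 92.6, 82.2 and 66.5 CPM and at 82.0, 71.9 and 88.3 CPM, with a log2 fold change of 0.01 and an interval from -0.33 to 0.34. Its sign depended on the scaling. Snai1, Twist1 and Twist2 had at most 18 counts in any library of this table and were not tested. Snai1 had 4, 2 and 9 counts in Zeb2 WT IR and 4, 1 and 6 in the libraries labelled as Zeb2 cTg IR, Twist1 had 9, 8 and 18 against 4, 10 and 9, and Twist2 had 1, 1 and 7 against 1, 4 and 1. Without the filter on counts their log2 fold changes were -0.48, -0.63 and -0.55, and 0 of the 3 passed by edgeR (adjusted p = 0.761, 0.574 and 0.799).

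**Figure D4:**
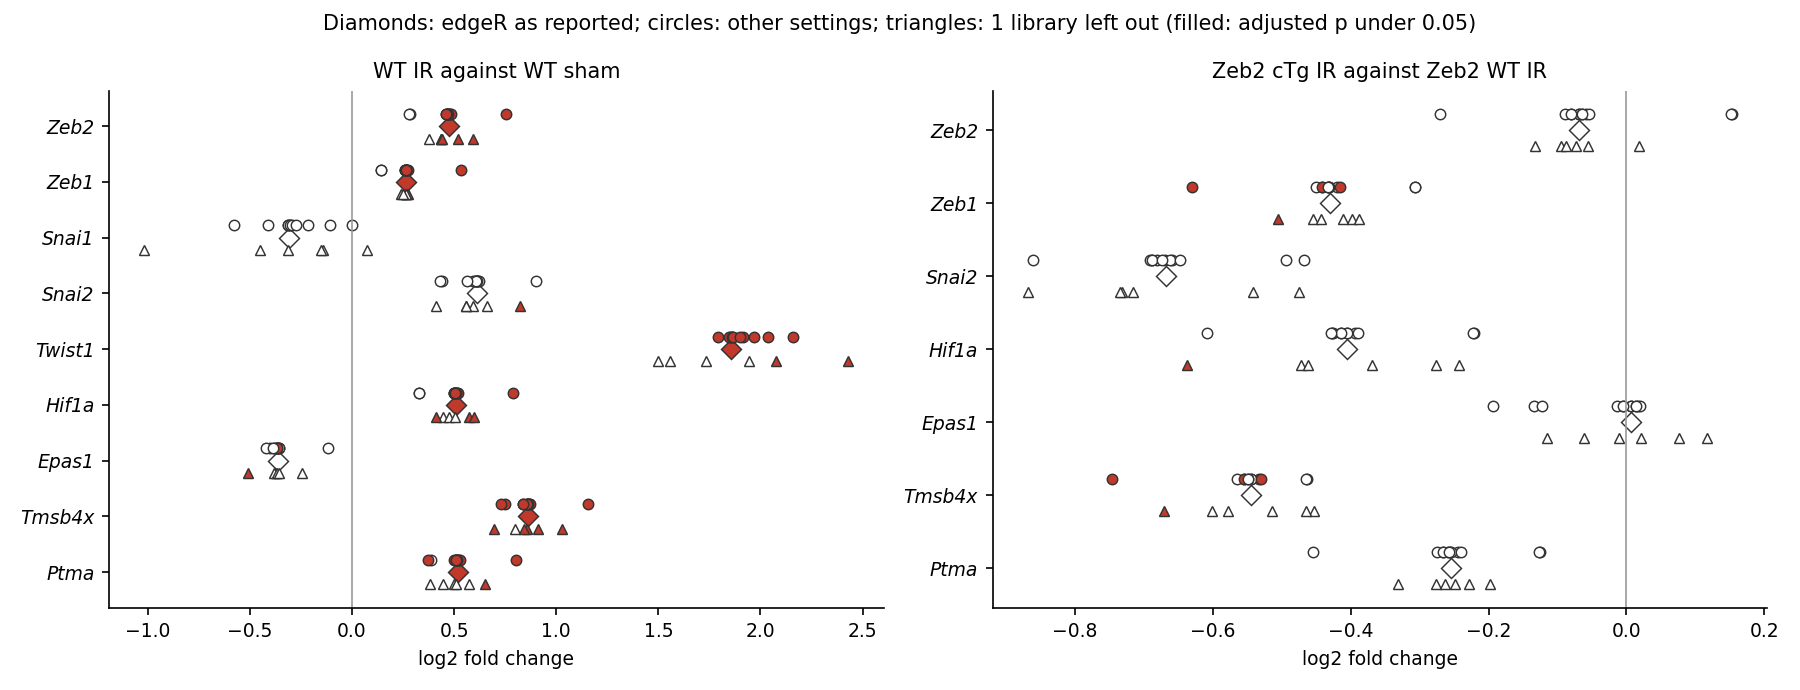
Log2 fold changes of each tested member as reported (diamonds), under other settings (circles) and with 1 library left out (triangles), filled where the adjusted p was under 0.05. In WT IR against WT sham, Zeb2, Zeb1, Twist1, Hif1a, Tmsb4x and Ptma stay to the right of 0 in every fit, and in the libraries labelled as Zeb2 cTg IR, Zeb1, Snai2, Hif1a, Tmsb4x and Ptma stay to the left.

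Among the paralogues, Zeb1 stood above Zeb2 per kilobase of exon in every group, at 3.77 ± 0.0988 against 2.59 ± 0.187 CPM per kilobase (SD, n = 3) in WT sham. This order rested on the length used. With the longest transcript in place of all exons, an alternative chosen after the data were seen, Zeb1 was at 6.67 and Zeb2 at 5.65 CPM per kilobase in WT sham, the ranges of the pair overlapped in WT IR, and Zeb2 was ahead, with overlap, in the libraries labelled as Zeb2 cTg IR. The log2 ratio of Zeb2 to Zeb1 was -0.63, -0.66 and -0.36 in Zeb2 WT IR and -0.17, -0.31 and -0.06 in the libraries labelled as Zeb2 cTg IR. It was thus higher in the latter by 0.37 without overlap (two-sided exact permutation p = 0.1, adjusted p = 0.4), and, as the values above show, Zeb1 differed more between the groups than Zeb2 did. In WT IR against WT sham this ratio overlapped (difference 0.20, two-sided exact permutation p = 0.3). Tmsb4x was the highest member per kilobase in all 4 groups, at 59.7 ± 4.71 in WT sham and 108 ± 25.4 CPM per kilobase in WT IR. Snai2, Snai1, Twist1 and Twist2 were at most 0.887 CPM per kilobase in any group mean.

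The genes around ZEB and TWIST did not move as a block in WT IR. Of 14 partners of ZEB proteins (corepressor and SMAD genes) 0 were higher and 2 lower, Ctbp1 (log2 fold change -0.43), which encodes the corepressor that ZEB proteins bind, and Mta1 (-0.39), a subunit of the NuRD complex, and their median was 0.02. Of 4 tested partners of TWIST proteins, Id2 was higher (1.68), and Id1 (-1.08) and Hand2 (-0.77) were lower, where ID proteins bind E-proteins and HAND2 pairs with TWIST1. Of 7 tested EMT factors outside the members, Sox9 (1.63), Tcf12 (0.45) and Tcf4 (0.27) were higher and Tcf3 (-0.44) was lower, of which the TCF genes encode E-proteins. The median of these 7 was 0.11. With a library left out, between 0 and 3 ZEB partners and between 0 and 5 of these EMT factors passed, with 0 ZEB partners without replicate 1 or 2 of WT sham or replicate 2 of WT IR, and 0 EMT factors without replicate 1 of WT sham. A single fit of the 12 libraries gave 0 ZEB partners and 2 EMT factors. In the libraries labelled as Zeb2 cTg IR, 0 genes of these 3 lists passed, though under the alternatives there were up to 2 ZEB partners, 1 TWIST partner and 3 EMT factors, and the medians were -0.04, 0.07 and -0.45. The largest difference among them was that of Snai3 (-1.78, edgeR adjusted p = 0.0919), which was named after its values were seen.

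Mesenchymal genes were largely higher in WT IR. Of 12, 10 were higher and 0 lower, with a median log2 fold change of 1.21, led by Sparc (1.71), Fstl1 (2.27) and Mmp2 (1.79), and with Vim, which encodes the intermediate filament vimentin, at 1.18. The count fell to 4 without replicate 2 of WT sham and to 6 without its replicate 3. Fibroblasts express most of these genes, and 11 of 12 fibroblast markers were higher as well, with a median of 1.76. Of 12 epithelial genes, 3 had enough counts to be tested and 0 passed, and Cdh1, the E-cadherin gene that ZEB proteins repress, was at 0.0330 CPM in WT sham and 0.0473 CPM in WT IR as group means. In the libraries labelled as Zeb2 cTg IR, 0 of 12 mesenchymal and 0 of 2 tested epithelial genes passed, with medians of -0.65 and -0.28. Under the alternatives up to 7 mesenchymal genes (without the filter on counts) and up to 2 epithelial genes (in a single fit of the 12 libraries) passed, and 4 and 1 passed without replicate 2 of those libraries.

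**Figure D5:**
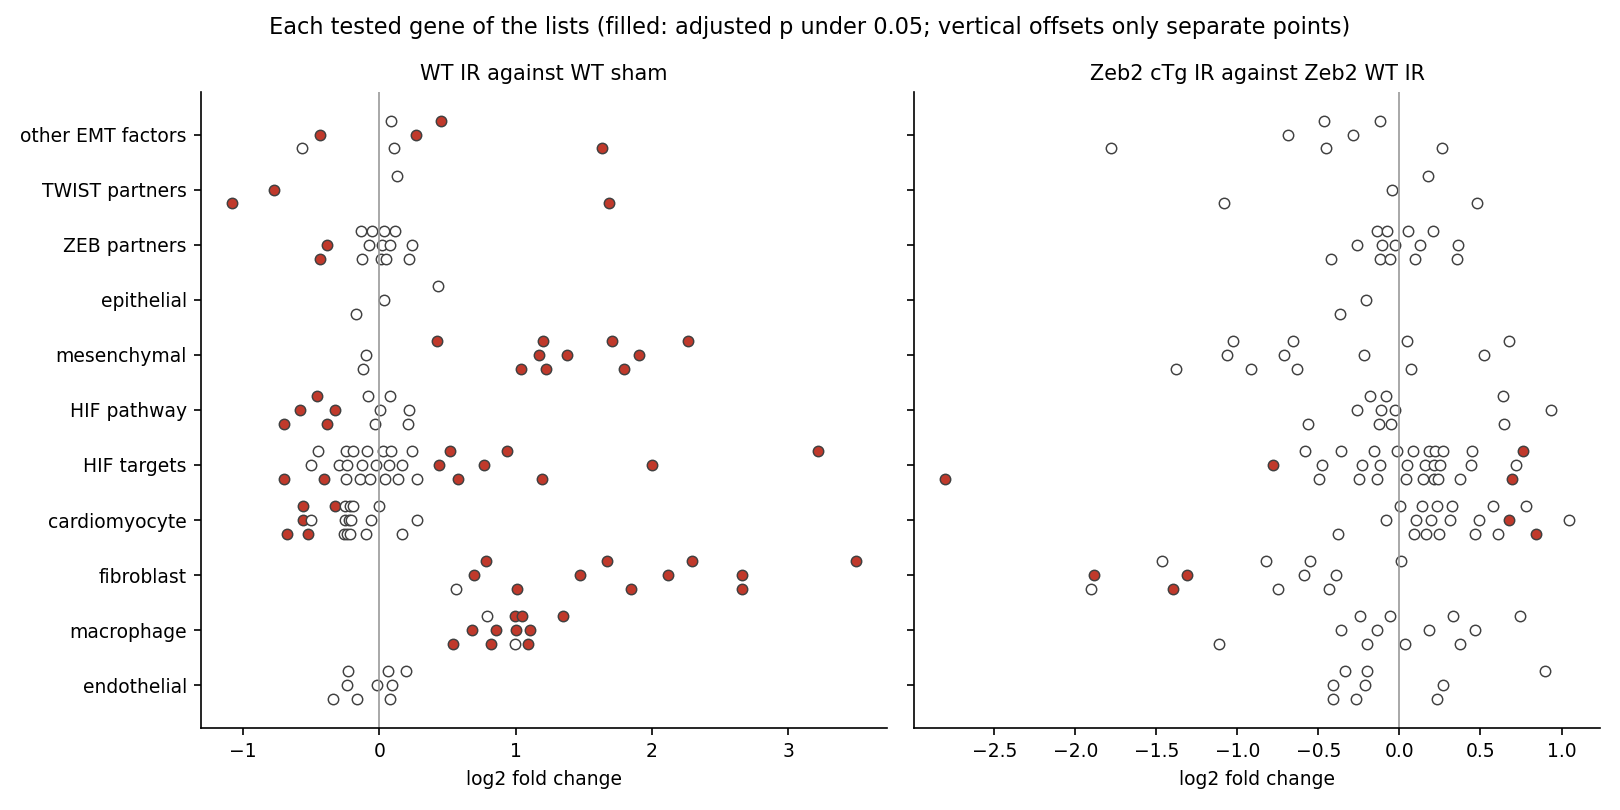
Log2 fold change of each tested gene of the lists in both comparisons, 1 point per gene, filled where the adjusted p was under 0.05 by the edgeR quasi-likelihood test. In WT IR the mesenchymal, fibroblast and macrophage genes lie mostly to the right of 0, with medians of 1.21, 1.76 and 0.99, while the HIF targets lie on both sides.

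Of 11 tested regulators and partners of the HIF proteins, 5 were lower and 0 higher in WT IR, with a median log2 fold change of -0.08. This count depended on the fit, with 0 under scaling on cardiomyocyte markers, 1 in a single fit of the 12 libraries and 3 with the GC-content adjustment. It was 0 without replicate 2 of WT sham, 1 without replicate 1 or 3 of WT sham or replicate 2 or 3 of WT IR, and 5 without replicate 1 of WT IR. The prolyl hydroxylase genes Egln1 (-0.38), Egln2 (-0.58) and Egln3 (-0.46), the asparaginyl hydroxylase gene Hif1an (-0.33) and the ubiquitin ligase gene Siah2 (-0.70) were those that were lower. Arnt, the gene of the shared partner subunit, was at 0.01 and Vhl, whose product binds hydroxylated HIF, at 0.22, and neither passed. Of 30 tested HIF target genes, 8 were higher and 2 lower, with a median of 0.03 against 0.01 over all genes. The 10 that passed became 3 without replicate 2 of WT sham, 15 without replicate 1 of WT IR, and between 7 and 10 without any other library. Among those that were higher were Lox (3.22), Loxl2 (1.20), Bnip3l (0.52), Pfkfb3 (0.77), Ndrg1 (0.44), Hmox1 (0.94) and Plod2 (0.57). Lox, Loxl2 and Plod2 encode enzymes that crosslink or modify collagen. Vegfa, the gene of the endothelial growth factor, was lower (-0.70, edgeR adjusted p = 0.00230), at 107, 100.3 and 101 CPM in WT sham and 66.6, 65.0 and 58.2 CPM in WT IR, and so was Hk2 (-0.41), a hexokinase gene. Genes of glycolysis such as Ldha (0.04), Pgk1 (-0.02) and Aldoa (-0.19) did not pass.

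In the libraries labelled as Zeb2 cTg IR, 0 of 11 genes of the HIF pathway passed, and up to 3 did under the alternatives. Of 30 HIF target genes 2 were higher, the glycolytic genes Tpi1 (0.69) and Eno1 (0.76), and 2 were lower, Lox (-2.80) and the adenylate kinase gene Ak4 (-0.78), with a median of 0.11. The number that passed was 9 without replicate 2 of those libraries and in a single fit of the 12 libraries, and 1 or 2 without any other library. Lox was at 20.9 ± 10.1 CPM in Zeb2 WT IR (SD, n = 3) and at 2.47, 3.59 and 2.95 CPM in the libraries labelled as Zeb2 cTg IR (edgeR adjusted p = 0.00325). In WT sham it was at 9.19, 2.48 and 2.50 CPM and in WT IR at 27.4, 39.3 and 67.7 CPM. Vegfa did not pass in the second table (0.04).

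Of the relatives of Tmsb4x and Ptma, Tmsb10, another thymosin gene, was higher in WT IR at 2.36 ± 0.634 against 1.11 ± 0.135 CPM (SD, n = 3; log2 fold change 1.05, Benjamini-Hochberg adjusted p = 0.0166 by the edgeR quasi-likelihood test), whereas Ptms, the parathymosin gene, did not pass (-0.01). The call of Tmsb10 was lost without any 1 of the WT sham hearts and without replicate 2 of WT IR. Neither passed in the libraries labelled as Zeb2 cTg IR (-0.15 and 0.39), and the 4 genes of the Tmsb15 group had too few counts to be tested. Of the 3 genes that the study names as interactors of Hif1a, Abcg2 (0.38) and Adam10 (0.35) were higher in WT IR and Egr1 (0.34, edgeR adjusted p = 0.596) did not pass. Neither call held with the GC-content adjustment, in a single fit of the 12 libraries, or without replicate 2 or 3 of WT sham or replicate 2 of WT IR, and 1 held without replicate 1 of WT sham or replicate 3 of WT IR. All 3 were below 0 in the libraries labelled as Zeb2 cTg IR, from -0.32 to -0.30, and 0 passed, though 2 did without replicate 2 of those libraries.

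Across the 6 libraries of each table, the genes whose log2 CPM was most like that of Zeb2 among 4677 genes were Klf10, Itih5, Rcbtb2, Itm2b and Anxa5, with a mean Pearson r of 0.951 for Klf10 and 0.911 for Anxa5. Those most like Hif1a were Pros1, Atp6v1h, Spred1, Ccdc88a and Tram1, with a mean r from 0.984 to 0.961, and Tmsb4x ranked 23 for Hif1a with 0.944. The r of Zeb2 with Hif1a was 0.87 in the WT table and 0.47 in the Zeb2 table. By mean r, Hif1a ranked 338 for Zeb2, and Zeb2 ranked 853 for Hif1a, among the 4677 genes. The r of Epas1 was negative with both Zeb2 and Hif1a (-0.86 and -0.73 with Zeb2). These values describe 6 libraries that form 2 groups and share their scaling, and no p is given. Of the 10 genes named, Itih5 (1.92), Anxa5 (0.57), Ccdc88a (0.51), Tram1 (0.58), Pros1 (0.71), Spred1 (0.40) and Klf10 (0.67) were higher in WT IR, as were 11.0% of all genes tested, and 0 passed in the libraries labelled as Zeb2 cTg IR. They were picked for likeness to Zeb2 or Hif1a, which rose over the same WT libraries. Their being higher in WT IR largely follows from that choice.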

How the data were processed

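RNA-seq was made from 12 hearts in 4 groups of 3, as 2 tables of 6 libraries. The values the authors deposited are raw read counts per gene, with strand-specific single-end reads mapped to mm10. The submitters' processing notes name STAR 2.4.2a and HTSeq 0.6.1. The members and gene lists were chosen with earlier results of these data known.

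Each table was fitted on its own in R 4.3.3 with edgeR 4.0.16 (TMM size factors, filterByExpr with at least 10 counts in enough libraries and 15 in all, quasi-likelihood test) between its 2 groups, with Benjamini-Hochberg adjustment over all genes tested and a threshold of 0.05. A gene that passed is called higher or lower, or is said to have risen or fallen. DESeq2 1.42.0 and limma-voom (limma 3.58.1), other size factors, other filters, a loess correction for GC content (span 0.5), a replicate block, 1 fit of all 12 libraries and each library left out were alternatives. Log2 ratios of paralogues were compared with exact permutation tests.

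Genes named were the 10 members, Zeb2os, Gt(ROSA)26Sor and its neighbours, Myh6, up to 6 passing genes of each list by smallest p, all tested thymosin relatives and Hif1a interactors, and the 5 genes most like Zeb2 or Hif1a. Others named from the lists (among them Hmox1, Plod2, Vim, Arnt, Vhl, Cdh1, Ldha, Pgk1, Aldoa and Snai3) were chosen after their values were seen. One gene that the rule would name is not reported here. Positions are from GENCODE M21 (GRCm38). On simulated counts for the WT table, 83.0% of genes changed by a log2 of 1 were recovered over 13659 genes, and 49.5% for the Zeb2 table over 12799 genes. Of the genes called there, 7.18% and 7.14% had not been changed. Changes smaller than a log2 of 1 were not simulated, and every tested member other than Twist1 in WT IR differed by less. No 2 of the 66 pairs of libraries held identical counts. The labels do not say how replicates were separated, so p-values measure the spread between these samples.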

Additional observations from a re-analysis of the deposited data

How the results depend on the processing

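In WT IR against WT sham, Zeb2 was at 0.29 with the correction for GC content, at 0.28 with that correction and the replicate block, and between 0.38 and 0.59 with a library left out. The members that passed numbered 3 with the correction for GC content, with or without the block (Hif1a in the one and Ptma in the other beside Tmsb4x and Twist1), and between 0 and 8 with a library left out. The sign of Snai1 turned with a library left out, between -1.02 and 0.073 (0.073 without replicate 1 of WT IR). In the libraries labelled as Zeb2 cTg IR, Zeb2 was at 0.15 with the correction for GC content, at 0.15 with it and the block, and between -0.13 and 0.019 with a library left out (0.019 without replicate 3 of Zeb2 WT IR). The members that passed there numbered 2 with cardiomyocyte marker scaling, with the replicate block, with the correction for GC content, with all 12 libraries in 1 fit and with DESeq2, 0 where the block was combined with the GC-content adjustment (edgeR adjusted p = 0.0711 for Tmsb4x and 0.0669 for Zeb1), 1 without the filter on counts, and between 0 and 3 with a library left out. All of them were lower. Over all genes, 196 of 13018 were lower as fitted. That number was 951 with cardiomyocyte marker scaling, 649 with the replicate block and 359 with the correction for GC content. With DESeq2 it was 425, with the block and the GC-content adjustment 307. A single fit gave 667 of 14151, and no filter 524 of 22125. Epas1 was at -0.0054 with RLE size factors, -0.014 with upper-quartile size factors, -0.19 with cardiomyocyte marker scaling, -0.13 with the correction for GC content, -0.12 with that and the block, -0.0053 with DESeq2, and between -0.12 and 0.12 with a library left out. The log2 ratio of Snai2 to Snai1 in that table lay between -0.95 and 0.46 with a library left out, that of Twist2 to Twist1 between -0.074 and 0.92, and in the WT table between -0.20 and 0.80. The cause was not tested.

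Same-numbered libraries did not deviate together in every pair (r = -0.03, 0.01 and -0.01 in the WT table and 0.13, 0.26 and -0.04 in the Zeb2 table), so the numbers were not taken to pair the samples. With the replicate block Zeb2 was at 0.46 in the WT table (edgeR adjusted p = 0.0199) and 6 members passed. In the Zeb2 table the block gave 1164 genes higher and 649 lower, against 278 and 196 without it, with Tmsb4x at -0.55 (edgeR adjusted p = 0.0297) and Zeb1 at -0.43 (adjusted p = 0.0230).

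Over all genes, those that passed with a library left out numbered 421 to 4979 in the WT table and 98 to 2419 in the Zeb2 table. A single fit of the 12 libraries gave 950 higher and 474 lower in the WT table and 1265 and 667 in the Zeb2 table. In the Zeb2 table DESeq2 gave 671 and 425, the correction for GC content 477 and 359, and no filter 1029 and 524. Log2 fold changes went with the GC content of transcripts across genes (Spearman rho -0.29 in the WT table and 0.55 in the Zeb2 table). Snai1, Twist1 and Twist2 are limited by their few counts.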
